A study of Homo sapiens with 54 samples.

Results

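The classical pathway of MHC class I antigen presentation was followed through 9 genes in colorectal cancer (CRC) cells that were sensitive or resistant to 5-fluorouracil (5-FU). The 9 genes were chosen by symbol, from what their products do, and each was found once among the 59368 genes of the deposited gene tables. They are the heavy chains HLA-B, HLA-C, HLA-E, HLA-F and HLA-G, the light chain B2M, the peptide transporter subunits TAP1 and TAP2, and the transcriptional activator NLRC5. RNA sequencing covered 54 libraries, made of 18 conditions with 3 replicates each, which the study's methods call biological triplicates. DLD-1, HCT-116 and HT-29 are established human CRC cell lines, and each was present as a sensitive and as a resistant population. The resistant populations were made by passaging the parental cells in increasing 5-FU and were kept in the drug, and no single clone was stated. Each population received 10 µM uracil for 24 h as the control, 10 µM 5-FU for 24 h, or 5-FU followed by a medium change and X-ray irradiation at the median lethal dose of its line. 5-FU is a pyrimidine analogue that inhibits thymidylate synthase and is incorporated into RNA and DNA. All samples were bulk cultures, in which fewer cells expressing a gene and less RNA per cell cannot be told apart.

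MHC class I molecules show short peptides from inside the cell to CD8+ T cells. Peptides cut by the proteasome are pumped into the endoplasmic reticulum by the TAP1-TAP2 transporter and are loaded onto a heavy chain paired with B2M. HLA-B and HLA-C are classical heavy chains, HLA-E and HLA-G are ligands of inhibitory receptors on natural killer cells, and HLA-F is a nonclassical heavy chain. NLRC5 is recruited to class I promoters by a complex of RFX, CREB/ATF and NF-Y factors, and interferons raise the whole set through IRF and other factors. Loss of B2M, of the TAP subunits or of heavy chains is a known route by which colorectal tumours escape T cells.

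Of the 9 genes, 7 lie on chromosome 6 in the MHC region (GRCh38, GENCODE release 44). HLA-F lies at chr6:29722775-29738528 and HLA-G at chr6:29826967-29831125, both on the plus strand with HLA-E at chr6:30489509-30494194. HLA-C (chr6:31268749-31272130), HLA-B (chr6:31353872-31367067), TAP2 (chr6:32821833-32838739) and TAP1 (chr6:32845209-32853816) are on the minus strand. B2M lies at chr15:44711358-44718851 and NLRC5 at chr16:56989485-57083531, both on the plus strand.

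Promoter windows of 250 bases before the transcription start were on hand for 7 of the 9 genes, in 10 windows (RefSeq, GRCh38.p14), and HLA-E and NLRC5 had none. They are shown because all members with a window were higher after 5-FU in sensitive HT-29, described below. The letters TGACG, the core bound by CREB/ATF factors, and ATTGG, the NF-Y site read on the other strand from CCAAT, were searched on both strands. They stood in that order with 15 to 25 bases between them upstream of HLA-B, HLA-C and B2M, against 0.407% of 35116 promoter windows; this spacing was chosen after the promoters of the members had been seen. Separately, TGACG was in 21.2% and ATTGG in 32.0% of windows. In the lines below, capitals mark the TGACG and ATTGG letters.
HLA-C: TGACGcgtccccaattcccactcccATTGG
HLA-B: TGACGcgtccccacttcccactcccATTGG
B2M: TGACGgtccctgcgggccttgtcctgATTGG
The HLA-C run (chr6:31272168-31272197, minus strand) began 105 bases before the start, that of HLA-B (chr6:31357256-31357285, minus strand) 106 bases and that of B2M (chr15:44711442-44711472, plus strand) 75 bases. There were 20 bases between the motifs in HLA-C and HLA-B and 21 in B2M.

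The second motif was GAAA, any 2 bases, GAAA, the core of the interferon-stimulated response element to which IRF factors bind. It was present in 3.02% of all windows and in a window of HLA-F, TAP1, TAP2 and B2M. In the lines below, capitals mark the motif, which is on the opposite strand in TAP1 and therefore reads TTTC, 2 bases, TTTC.
TAP2: ctggggaagcGAAAGCGAAAgctgcccgag
TAP1: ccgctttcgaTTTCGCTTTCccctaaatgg
B2M: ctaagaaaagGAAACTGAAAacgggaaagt
They lay at chr6:32838778-32838807 (minus strand, motif 58 bases before the start), chr6:32853813-32853842 (minus strand, 128 bases) and chr15:44711369-44711398 (plus strand, 138 bases). The TAP1 and B2M windows each held another, overlapping copy of the motif. These matches describe letters in a window and say nothing of binding in these cells.

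Levels are given in TPM, each transcript's scaled share of all transcripts after correction for transcript length. Differences are log2 fold changes with their standard error (SE), fitted to the estimated counts. A gene is said to have risen or fallen when its adjusted p was at most 0.01 over all genes tested and its fold change was at least 2-fold (1 on the log2 scale). Where only the adjusted p passed, the value is given without such a verb. Library totals ranged from 38957142 to 218518344 estimated counts, with a median of 51373543. Only HLA-G was too low to enter the DLD-1 and HCT-116 fits. It entered the HT-29 fit and the fit of all libraries only through sensitive HT-29 given 5-FU, with or without irradiation, where it is high. Its own call therefore supports nothing, and the counts below are given over the other 8 members unless HLA-G is named. Replicate 1 of resistant DLD-1 under uracil stood furthest apart from its replicates (chi-square per degree of freedom of 24.5 and 21.1, against 3.33 between those). For resistant against sensitive DLD-1 under uracil the larger member values are also given without it. Replicate 3 stood apart less in sensitive HT-29 under uracil (11.7 and 15.5, against 3.26). The same held in resistant HCT-116 under uracil (8.56 and 9.82, against 3.12) and with irradiation (9.14 and 12.3, against 3.84). Most results that use these libraries are not given without them. Epithelial markers were present in each line: 6 to 8 of 10 colon epithelium markers were at 1 TPM or more, although CDX1 and CEACAM5 were at under 0.1 TPM in HCT-116 under uracil. Of 8 immune cell markers only 1 or 2 reached 1 TPM, the summed level stayed between 1.17 and 8.00 TPM in all libraries, and CD3E was under 0.1 TPM in every condition.

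One set of libraries went against its label. Marker genes of a line reached 10 TPM in all of its sensitive uracil libraries without exceeding 0.1 TPM in those of either other line. Of 46 such genes for HCT-116, 44 were at 1 TPM or more in all uracil libraries labelled resistant HT-29, as 44 were in resistant HCT-116, and 0 were in sensitive HT-29. None of the 5 HT-29 markers was on in the libraries labelled resistant HT-29, against 5 of 5 in sensitive HT-29. A contrast of resistant with sensitive HT-29 therefore cannot be told apart from a contrast of 2 cell lines, and those libraries are called labelled resistant HT-29 throughout. The fits within DLD-1 and within HCT-116 do not use them. Comparisons between lines come from the fit over all libraries, which includes them, and their influence there was not tested.

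B2M was by far the most abundant member, from 250.6 to 2470 TPM over the 54 libraries with a median of 581.0 TPM. HLA-C followed with a median of 190.6 TPM, then HLA-B (55.3 TPM), TAP2 (51.4 TPM), HLA-E (48.4 TPM), TAP1 (25.4 TPM), HLA-F (9.82 TPM) and NLRC5 (5.499 TPM). HLA-G was close to silent: its median was 0.0321 TPM, no library reached 1 TPM, and only 20 of 54 libraries held more than 3 counts. HLA-E was the most even of the expressed members, between 38.6 and 72.3 TPM. TAP1 spanned 1.72 to 41.0 TPM, and its lowest value, like those of HLA-B, HLA-C, HLA-F, TAP2 and NLRC5, came from sensitive HT-29 under uracil.

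**Figure D1:**
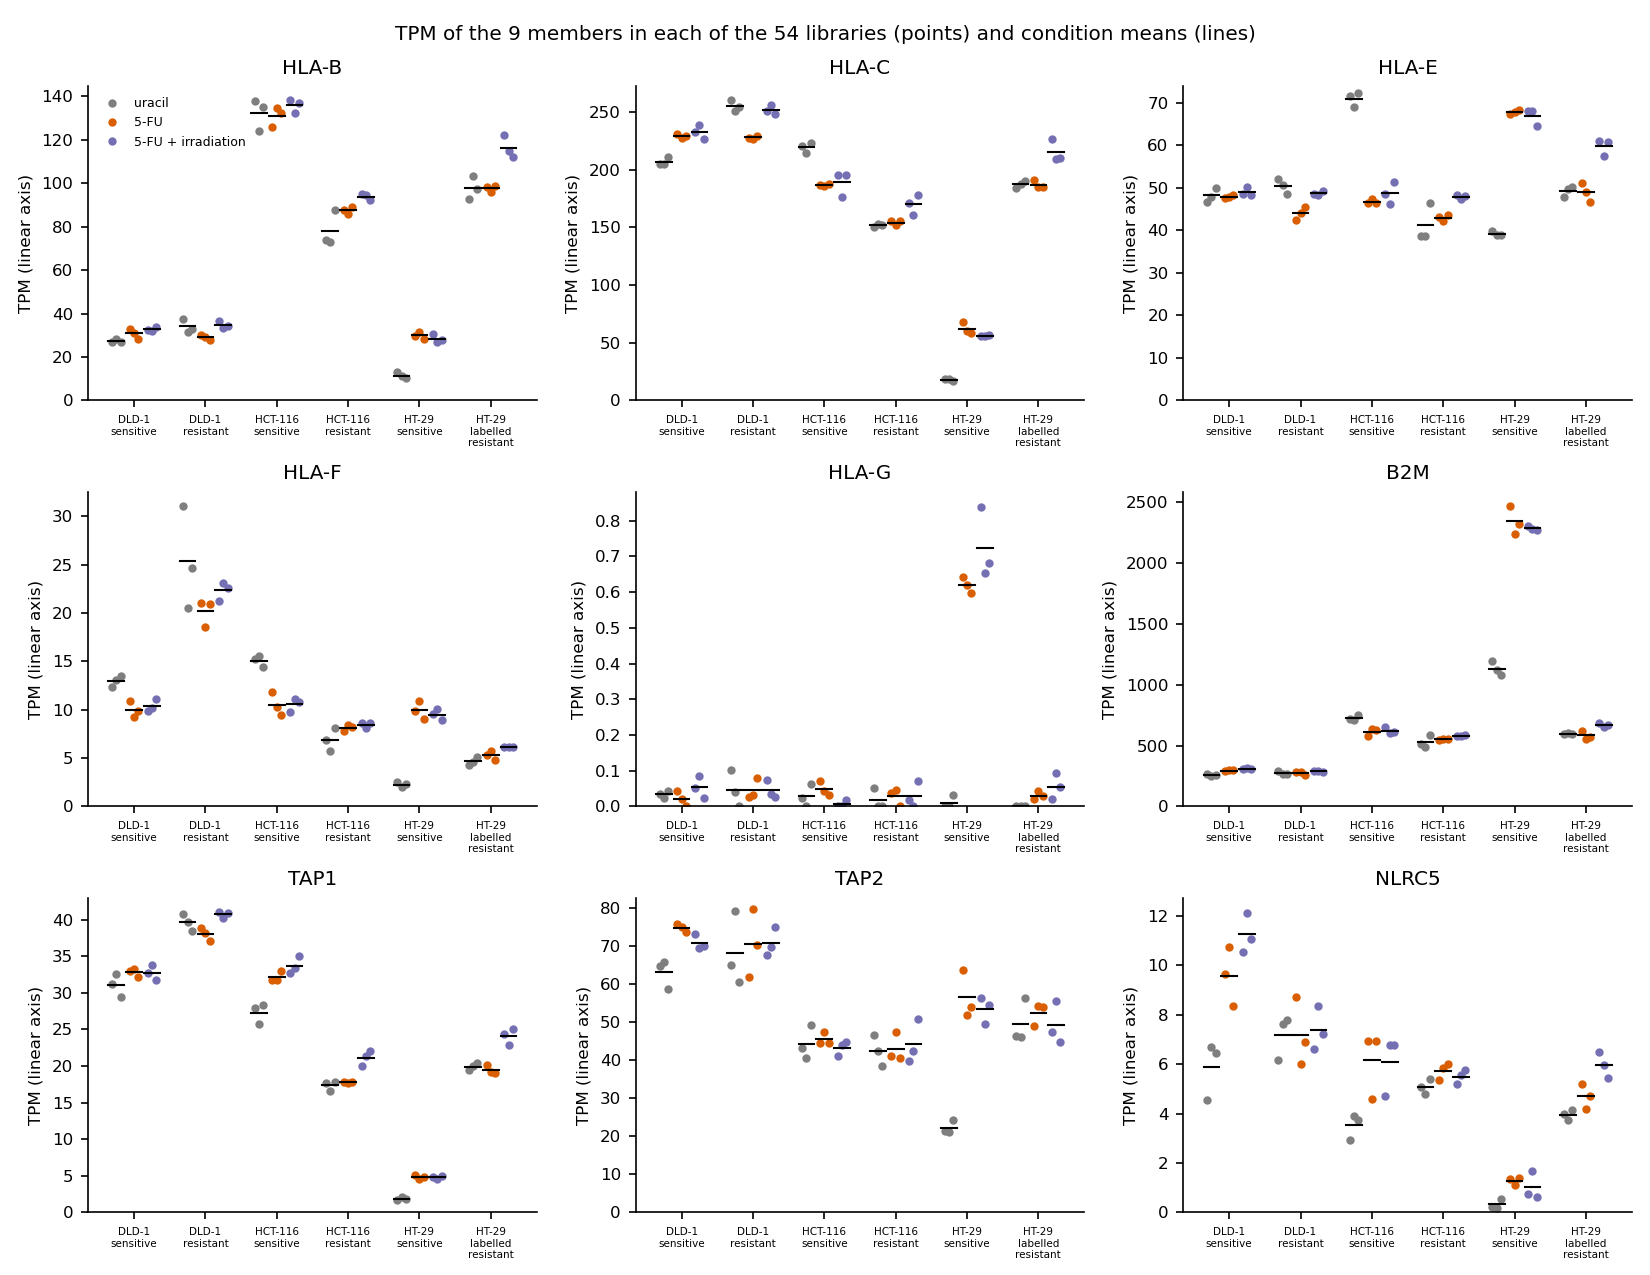
TPM (linear axis, 1 panel per gene) of the 9 members in each of the 54 libraries, grouped by line and population; points are libraries, colours are treatments and short lines are means of 3. In sensitive HT-29 the uracil points lie below the 5-FU points in every panel, while B2M is highest in these cells and HLA-B, HLA-C, TAP1 and NLRC5 are lowest in their uracil libraries.

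When the 18 conditions were ordered by mean TPM, neighbours in the order often could not be separated by their replicate ranges. Ranges overlapped in 9 of 17 neighbouring pairs for HLA-C, 10 for B2M, HLA-F and TAP1, 11 for HLA-B, 13 for HLA-E and NLRC5, and 15 for TAP2 and HLA-G. For HLA-B the first 3 places were held by sensitive HCT-116 with overlapping ranges (131 to 136 TPM), and for B2M by sensitive HT-29, whose 5-FU conditions overlapped (2341 and 2284 TPM) and stood apart from its uracil condition (1131 TPM). HLA-C was led by resistant DLD-1 under uracil and with irradiation (255 and 252 TPM, overlapping) and ended with the 3 sensitive HT-29 conditions, which did not overlap one another (62.1, 56.2 and 18.1 TPM). TAP1 and NLRC5 also ended with sensitive HT-29, where the 5-FU conditions overlapped each other and the uracil condition stood alone below them. For TAP2 only the lowest place, sensitive HT-29 under uracil, and the highest, sensitive DLD-1 under 5-FU, stood apart from the adjacent place. The range of the highest, 73.5 to 75.6 TPM, still overlapped those of the resistant DLD-1 conditions further down, where 1 library reached 79.6 TPM.

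Sensitive HT-29 had little RNA of most members before treatment, and a great deal of B2M. HLA-C was at 18.6, 18.6 and 17.0 TPM in the 3 uracil libraries of sensitive HT-29, against 205, 205 and 211 TPM in DLD-1 and 221, 214 and 223 TPM in HCT-116. TAP1 was at 1.72, 2.16 and 1.82 TPM there, against 29.5 to 32.5 TPM in DLD-1 and 25.7 to 28.3 TPM in HCT-116. The order was turned for B2M, at 1194, 1121 and 1076 TPM in HT-29, 711 to 748 TPM in HCT-116 and 251 to 270 TPM in DLD-1. None of these ranges overlapped between lines for HLA-B, TAP1 or B2M.

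In 1 fit over all libraries, 6 members were lower in sensitive HT-29 than in sensitive DLD-1 and B2M alone was higher, beside 30.9% of all genes tested that were called in either direction. The largest differences were those of NLRC5 (-4.78 ± 0.12), TAP1 (-3.95 ± 0.06) and HLA-C (-3.39 ± 0.06), followed by HLA-F (-2.46), HLA-B (-1.63) and TAP2 (-1.36), whereas B2M was 2.32 ± 0.05 higher. HLA-E differed by -0.12 ± 0.05 and was not called. All 7 calls were also those that passed the adjusted p alone, which 58.8% of genes did.

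Against sensitive HCT-116 the same 6 genes, HLA-B (-3.57), HLA-C (-3.47), HLA-F (-2.69), NLRC5 (-4.51), TAP1 (-3.74) and TAP2 (-1.07), were lower in sensitive HT-29, beside 20.9% of all genes. HLA-E (-0.68) and B2M (0.81) passed the adjusted p alone, which brings the count to 8, beside 63.7% of genes. HCT-116 exceeded DLD-1 in 2 members (16.6% of all genes were higher): HLA-B by 1.94 ± 0.06, from 27.0 to 28.4 TPM in DLD-1 to 124 to 138 TPM in HCT-116, and B2M by 1.51 ± 0.05. In that pair 6 members passed the adjusted p alone, as did 59.8% of genes. Alleles of the HLA genes differ between lines while reads were assigned to 1 common transcript set, and the part of this in differences between lines was not tested.

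The other genes of the pathway also set the lines apart. PSMB8, an interferon-inducible proteasome subunit, had mean levels of 62.5 TPM in DLD-1, 6.75 TPM in HT-29 and 0.654 TPM in HCT-116. PSMB9, its partner subunit, was at 12.3 TPM in DLD-1, 6.96 TPM in HCT-116 and 0.491 TPM in HT-29. FCGRT, the neonatal Fc receptor chain that also pairs with B2M, was at 55.2 TPM in HT-29, 1.19 TPM in HCT-116 and 0.316 TPM in DLD-1, a difference of 8.08 ± 0.21 between HT-29 and DLD-1. MICB, a stress-induced ligand of the activating receptor NKG2D, was at 0.664 TPM in HT-29, 14.0 TPM in DLD-1 and 19.9 TPM in HCT-116. Class II genes were seen mainly in HCT-116, with HLA-DRA at 5.10 TPM, HLA-DQB1 at 5.18 TPM and HLA-DRB1 at 2.67 TPM, whereas CD74, the invariant chain, was highest in HT-29 at 5.14 TPM.

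The response of sensitive cells to 5-FU addressed whether the drug alone changed the pathway. In HT-29, 6 of 8 members rose, namely HLA-B, HLA-C, HLA-F, TAP1, TAP2 and NLRC5, beside 8.86% of all genes. The others, HLA-E and B2M, were higher by less than 2-fold. In DLD-1 and HCT-116 no member rose or fell, beside 4.02% and 8.15% of all genes.

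The classical heavy chains of HT-29 increased in every library. HLA-C went from 18.6, 18.6 and 17.0 TPM under uracil to 67.8, 59.9 and 58.5 TPM under 5-FU, a log2 fold change of 1.52 ± 0.06 (adjusted p = 2.7e-17). HLA-B went from 13.1, 11.1 and 10.1 TPM to 29.8, 31.7 and 28.3 TPM, or 1.27 ± 0.06 (adjusted p = 5e-15). The lowest treated library was above the highest control library for both genes.

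Among the nonclassical heavy chains, HLA-F rose by 1.75 ± 0.12 (adjusted p = 1.5e-12), from 2.48, 1.99 and 2.27 TPM to 9.85, 10.9 and 9.04 TPM. HLA-G was listed at 0, 0 and 0.0316 TPM under uracil, which is 1 count in all, and at 0.642, 0.621 and 0.598 TPM under 5-FU. The libraries given 5-FU held 140 counts together, against 1 under uracil, and no test is drawn from these. The treated level remained far under that of every other heavy chain, and reads of this gene are shared by estimate with its close relatives, so the identity of these few reads is uncertain. HLA-E moved least, from 39.9, 38.8 and 38.9 TPM to 67.3, 67.9 and 68.3 TPM, with a log2 fold change of 0.55 ± 0.05 that passed the adjusted p only.

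The light chain and the transporter followed. B2M stood at 2470, 2238 and 2315 TPM under 5-FU against 1194, 1121 and 1076 TPM, a difference of 0.78 ± 0.04 (adjusted p = 5.3e-14) and thus under 2-fold on the count scale. TAP1 rose by 1.15 ± 0.08, from 1.72, 2.16 and 1.82 TPM to 5.13, 4.60 and 4.79 TPM. TAP2 rose by 1.14 ± 0.04, from 21.2, 21.2 and 24.3 TPM to 63.5, 51.8 and 53.9 TPM, which overlaps the range of the labelled resistant HT-29 cells. TAP1 under 5-FU was still far below its level in DLD-1 or HCT-116, while HLA-F overlapped and TAP2 exceeded the values of sensitive HCT-116 under 5-FU.

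NLRC5 rose by 1.51 ± 0.18 (adjusted p = 5.4e-08), from 0.206, 0.198 and 0.561 TPM to 1.33, 1.10 and 1.37 TPM. These values rest on 24, 19 and 23.2 estimated counts under uracil and 107, 85 and 96 under 5-FU. Across HT-29, 8.86% of all genes tested rose, and the median change of all genes was 0.03. All 8 members other than HLA-G passed the adjusted p alone, which 47.0% of genes did. TPM ratios were larger than these fold changes, and scaling the counts by library size alone, as TPM does, moved the median of all genes to 0.19. On the log2(TPM + 1) scale, which understates changes of low genes, NLRC5 differed by 0.79 and HLA-G by 0.68, both under 2-fold, and B2M by 1.05.

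**Figure D2:**
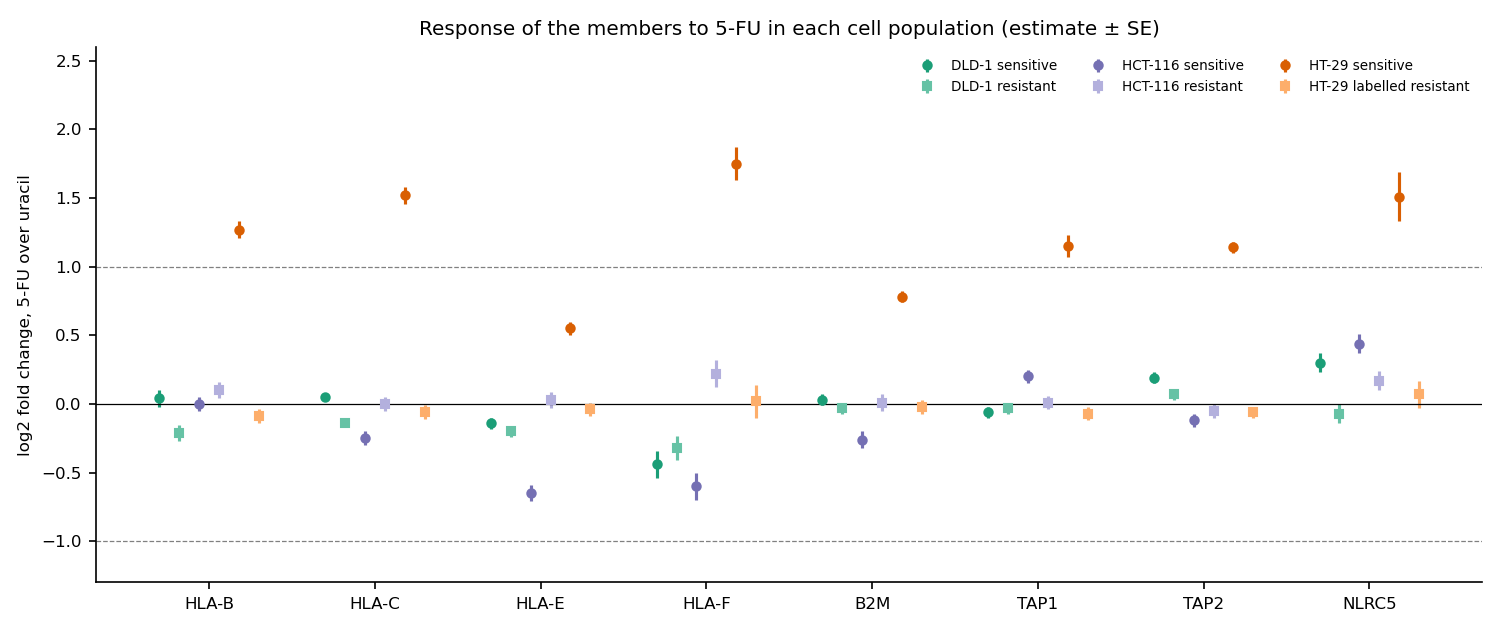
log2 fold change of 5-FU over uracil (y axis) for the 8 members that could be fitted in all lines, in sensitive (circles) and resistant (squares) populations; bars are SE and dashed lines mark 2-fold. The sensitive HT-29 points lie between 0.55 and 1.75, and no other point passes 2-fold.

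In sensitive DLD-1, 0 of 8 members rose or fell by edgeR, DESeq2 or limma, beside 4.02% of all genes. An unadjusted p under 0.05 was found for 4 members, and the same number passed the adjusted p alone, beside 34.7% of genes. HLA-F was at 12.3, 13.1 and 13.5 TPM under uracil and 10.9, 9.29 and 9.84 TPM under 5-FU (-0.44 ± 0.10, adjusted p = 0.00083). NLRC5 differed by 0.30 ± 0.07, TAP2 by 0.19 ± 0.04 and HLA-E by -0.14 ± 0.04. The value of TAP1 was -0.06, or 0.04 with scaling by library size alone, and was called under neither.

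In sensitive HCT-116 the count was also 0 of 8 by the same tools, beside 8.15% of all genes, with 7 members at an unadjusted p under 0.05. Here 6 members passed the adjusted p alone (42.0% of genes), 4 of them lower. HLA-E was lowest against its control, at 46.4, 47.4 and 46.5 TPM after 5-FU against 71.6, 68.9 and 72.3 TPM (-0.65 ± 0.06, adjusted p = 7.5e-09). HLA-F (-0.60 ± 0.10), B2M (-0.26 ± 0.06) and HLA-C (-0.25 ± 0.05) had the same sign, whereas NLRC5 (0.44 ± 0.07) and TAP1 (0.20 ± 0.05) were higher. HLA-B was at 138, 124 and 135 TPM under uracil and at a mean of 131 TPM under 5-FU (-0.00 ± 0.05).

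The difference between lines was tested directly in the fit over all libraries. Leaving HLA-G aside, the 5-FU response of 6 members was greater in sensitive HT-29 than in sensitive DLD-1 (5.51% of all genes were), and this was true of 8 of 8 members in HT-29 against HCT-116 (8.51% of all genes). With HLA-G, whose own call supports nothing, the counts were 7 and 9 by edgeR, 5 and 8 by DESeq2 and 4 and 6 by limma on log2(TPM + 1). DESeq2 gave HLA-G a log2 difference of 6.79 against DLD-1 but no adjusted p. By edgeR HLA-G no longer passed the adjusted p against HCT-116 without any 1 replicate (0.019 to 0.076), nor against DLD-1 without replicate 2 (0.022). For HLA-F the responses differed by 2.26 ± 0.16 and 2.41 ± 0.16, and for HLA-C by 1.54 ± 0.07 and 1.83 ± 0.07. HLA-E and B2M differed from DLD-1 by 0.76 and 0.82 and from HCT-116 by 1.26 and 1.10. Both comparisons share the HT-29 libraries, and the adjusted p alone was passed by all 8 in each, beside 27.2% and 34.9% of genes. With limma, NLRC5 was at 0.16 and 0.14, past no threshold, and TAP1 at 0.94 and 0.78, under 2-fold. HCT-116 and DLD-1 differed in the response of 0 members by edgeR, DESeq2 or limma (5.32% of genes), with 5 at an unadjusted p under 0.05 and the same 5 passing the adjusted p (25.3% of genes); HLA-E showed the largest of these differences, -0.50 ± 0.07.

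The rest of the pathway in sensitive HT-29 was read from lists of genes by function. Of 7 peptide supply genes 2 rose and 0 fell, with a list median of 0.64 beside 0.03 for all genes: PSMB9 by 1.78 ± 0.29 and PSMB8 by 1.17 ± 0.11, from a mean of 6.75 to 17.8 TPM. Of 5 peptide loading genes only TAPBPL, a tapasin-related peptide editor, rose (1.01 ± 0.12), and the list median was -0.08. Of 13 genes for transcription factors of class I genes only IRF9 rose, by 1.80 ± 0.11 from 17.97 to 63.6 TPM; it is the DNA-binding part of the complex that type I interferon activates. IRF1 (0.74) was under 2-fold, and the median of that list was -0.13. None of 7 tested interferons, receptors and kinases rose or fell by edgeR, with 5 at an unadjusted p under 0.05, and the same 5 passed the adjusted p in the upward direction.

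**Figure D3:**
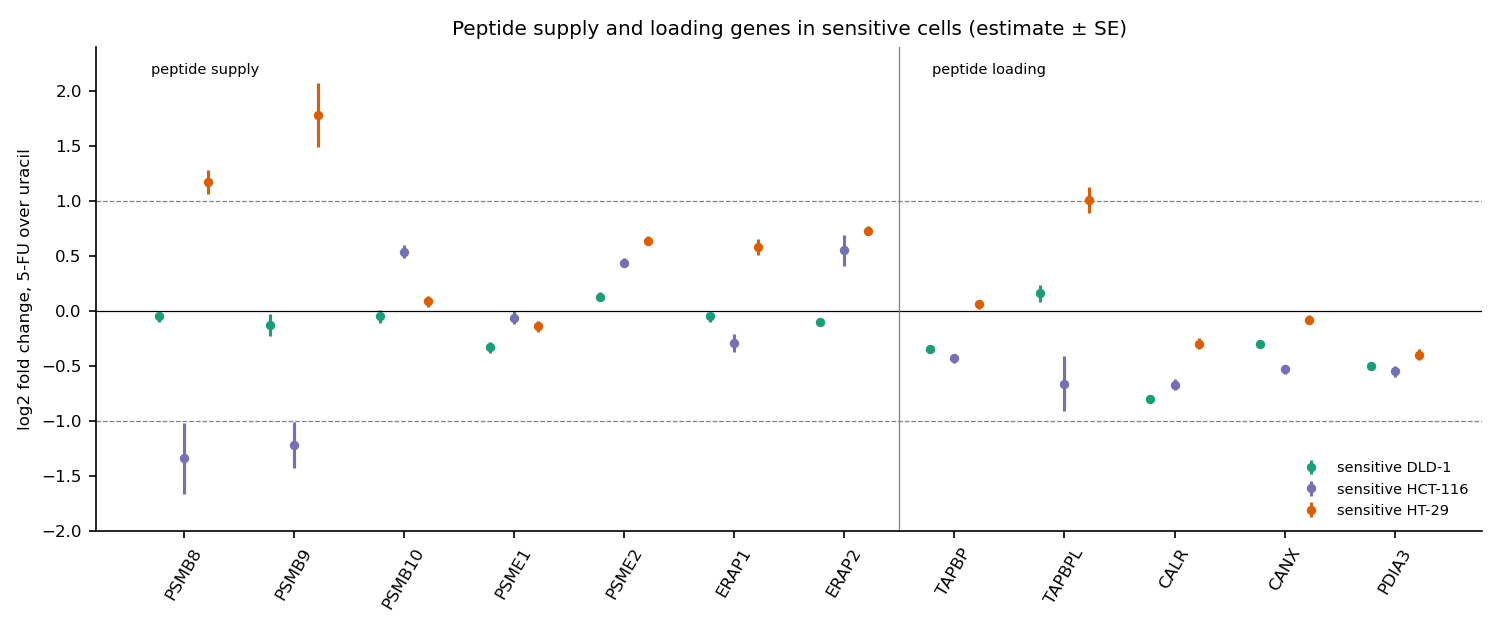
log2 fold change of 5-FU over uracil (y axis, bars are SE) in the 3 sensitive lines for 7 genes of peptide supply and 5 of peptide loading; dashed lines mark 2-fold. PSMB8, PSMB9 and TAPBPL pass 2-fold upward in HT-29, and PSMB8 and PSMB9 pass it downward in HCT-116.

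Ligands and relatives of class I molecules also moved in HT-29, where 5 of 11 tested rose and 0 fell (median 0.61). ULBP2 and RAET1G, ligands of the activating receptor NKG2D, rose by 2.42 ± 0.09 (from 3.60 to 23.3 TPM) and 2.12 ± 0.27. MICB, another such ligand, rose by 1.79 ± 0.11, and MR1, which presents vitamin B metabolites to MAIT cells, by 1.73 ± 0.11. Of 8 tested class II genes CD74 rose (1.14 ± 0.09). Other markers moved with the treatment as well: the summed level of the 10 colon epithelium markers went from 8270 to 9054 TPM under uracil to 13400 to 13530 TPM under 5-FU, with KRT20 (1.54) and CEACAM5 (1.52) among them. The summed immune markers went from 4.66 to 6.59 TPM down to 2.77 to 3.86 TPM, with CD14 lower (-1.37) and ITGAM (1.49) higher, both at a mean under 5 TPM. CD3E, MS4A1 and FCGR3A were under 0.1 TPM in both. The part of these shifts in the members' rise was not tested.

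In HCT-116 the median of the transcription list was -0.12 and that of peptide loading -0.55, and no difference between lines was tested for the lists. PSMB8 (-1.34 ± 0.32) and PSMB9 (-1.22 ± 0.21) fell, from 0.654 to 0.271 TPM and from 6.96 to 2.91 TPM, and no gene of peptide loading or transcription rose or fell. IRF1 differed by -0.05. In DLD-1 no gene of the 4 lists for peptide supply, loading, transcription and interferon signalling was called, with IRF1 at 0.25. RAET1E, an NKG2D ligand, rose there by 1.36 ± 0.08, whereas HFE (-1.23 ± 0.09), the class I-like regulator of iron uptake, and ULBP1 (-1.15 ± 0.13), an NKG2D ligand, fell.

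No difference of the members was detected in sensitive cells when irradiation was added to 5-FU. In sensitive HT-29 under 5-FU with irradiation, HLA-C stood at 55.8, 56.1 and 56.7 TPM, just below the 58.5 to 67.8 TPM of 5-FU alone, and B2M at 2304, 2279 and 2269 TPM, within the range of 5-FU alone. HLA-G held 118 counts, against 1 under uracil, and no test is drawn from these either. The count of called members was 0 in each sensitive line by edgeR, DESeq2 and limma, and an unadjusted p under 0.05 was found for 2 members of HT-29 and 0 of the others. The background was as low: 0.0% of genes were called for DLD-1, 0.0% for HCT-116 and 0.00842% for HT-29, and the adjusted p alone was passed by 0.0642%, 0.927% and 0.00842% of genes.

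Resistant cells were examined in the same way. When they were given 5-FU, 0 members were called in DLD-1 (0.0138% of all genes), HCT-116 (0.0%) and labelled resistant HT-29 (0.00421%) by edgeR, DESeq2 and limma, and 4, 2 and 1 had an unadjusted p under 0.05. None passed the adjusted p alone, beside 0.385%, 0.0% and 0.0421% of genes. HLA-B of resistant DLD-1 was at 37.7, 31.5 and 33.1 TPM under uracil and 30.1, 29.2 and 28.0 TPM under 5-FU, a difference of -0.21 ± 0.06 (adjusted p = 0.054).

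With irradiation added, 0 members were called in the resistant cells by any of the tools, beside a background of 0.142% for DLD-1, 0.0261% for HCT-116 and 0.434% for labelled resistant HT-29. Smaller differences passed the adjusted p and all were upward: 2 members in DLD-1 (3.85% of genes), 1 in HCT-116 (2.57%) and 5 in labelled resistant HT-29 (14.4%). An unadjusted p under 0.05 was found for 6, 4 and 5 members. HLA-B of DLD-1 was at 36.6, 33.4 and 34.5 TPM after irradiation against 28.0 to 30.1 TPM under 5-FU alone (0.28 ± 0.06, adjusted p = 0.0042), and HLA-E differed by 0.17 ± 0.04. TAP1 of HCT-116 went from 17.8, 17.7 and 17.8 TPM to 20.0, 21.4 and 22.1 TPM (0.23 ± 0.05, adjusted p = 0.0057). In labelled resistant HT-29 the values were 0.29 for TAP1, 0.26 for HLA-E, 0.25 for HLA-B, 0.19 for HLA-C and 0.16 for B2M, and the ranges of these 5 genes did not overlap.

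The difference between resistant and sensitive cells under uracil addressed how the pathway differed in cells with acquired resistance. With 1 resistant population per line, kept in 5-FU, resistance cannot be told apart from passaging or continued culture in the drug. It had opposite signs in DLD-1 and HCT-116 for most members, although the difference between these lines was not itself tested. In resistant HCT-116, 7 of 8 members were lower at the adjusted p, which 41.0% of all genes passed in either direction. HLA-F fell past 2-fold there, as did 6.8% of genes. In resistant DLD-1, 6 of 8 were higher at the adjusted p, which 24.6% of genes passed in either direction, and none passed 2-fold.

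In HCT-116, HLA-F fell by 1.18 on the log2 scale (SE 0.10, adjusted p = 1.6e-09), from 15.3, 15.5 and 14.4 TPM in sensitive to 6.83, 5.69 and 8.12 TPM in resistant cells; 6.8% of all genes fell. HLA-E was at 71.6, 68.9 and 72.3 TPM in sensitive and 38.7, 38.6 and 46.5 TPM in resistant cells (-0.85 ± 0.06), and HLA-B at 138, 124 and 135 TPM and 73.8, 72.8 and 87.6 TPM (-0.78 ± 0.06). TAP1 went from 27.9, 25.7 and 28.3 TPM to 17.6, 16.6 and 17.8 TPM (-0.69 ± 0.05). These groups did not overlap. HLA-C (-0.58), B2M (-0.48) and TAP2 (-0.26) also passed the adjusted p, which 41.0% of genes did, and the median of the members was -0.64 beside 0.00 for all genes. NLRC5 differed by -0.00 ± 0.08 on the count scale, although its TPM was higher in resistant cells (4.79 to 5.40 TPM against 2.93 to 3.89 TPM).

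In DLD-1, 0 of 8 members were called by edgeR, DESeq2 or limma, beside 5.7% of all genes, with 6 at an unadjusted p under 0.05 and the same count at the adjusted p (24.6% of genes). HLA-F was at 12.3, 13.1 and 13.5 TPM in sensitive and 31.1, 20.5 and 24.7 TPM in resistant cells, a difference of 0.99 ± 0.09, just under the 2-fold limit. Without replicate 1 of each group, which leaves out the DLD-1 library that stood furthest apart, it was 0.82, and without replicate 2 or 3 it passed the limit (1.11 and 1.03). NLRC5 differed by 0.44 ± 0.07, HLA-B by 0.36 ± 0.06, TAP1 by 0.32 ± 0.04, HLA-C by 0.30 ± 0.03 and TAP2 by 0.14 ± 0.04. TAP1 was at 40.7, 39.7 and 38.5 TPM in resistant cells against 31.3, 32.5 and 29.5 TPM in sensitive cells, without overlap. B2M (0.09) and HLA-E (0.05) were close to level. The median of the members was 0.31, beside -0.01 for all genes. Without replicate 1 the values were 0.50 for NLRC5, 0.28 for HLA-B, 0.31 for TAP1, 0.29 for HLA-C and 0.21 for TAP2, and each still passed the adjusted p.

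**Figure D4:**
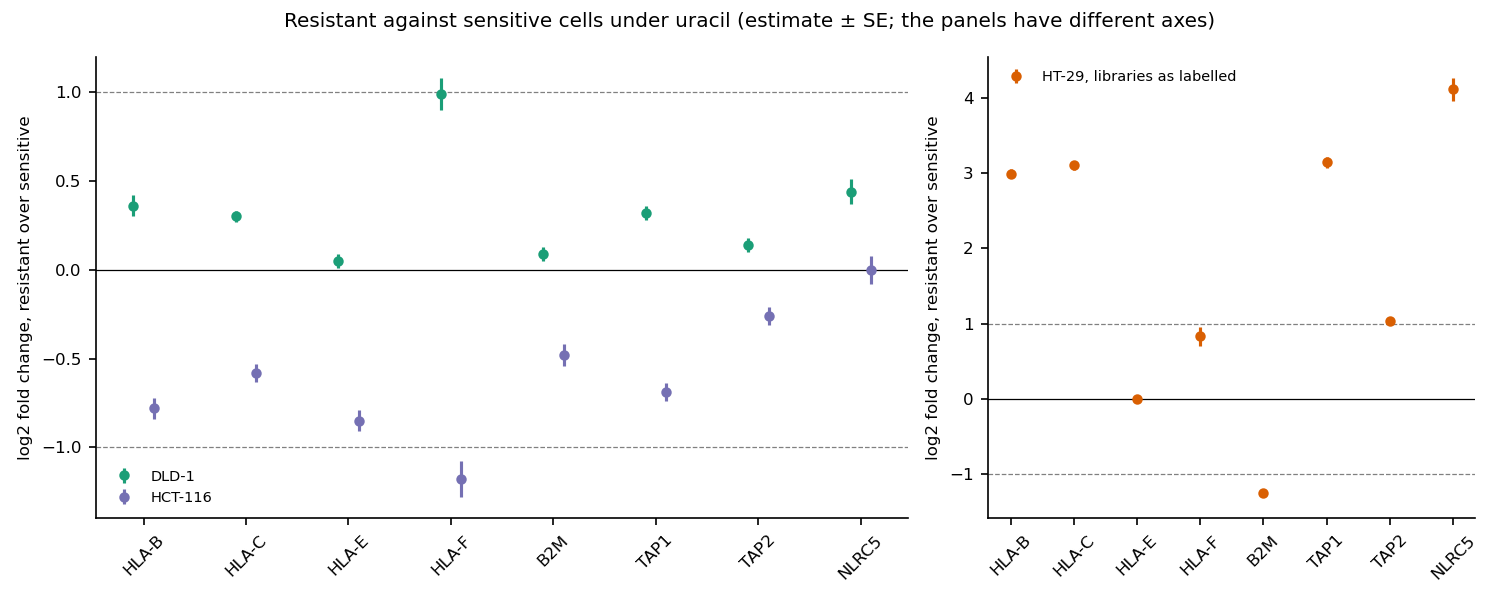
log2 fold change of resistant over sensitive cells under uracil (y axis, bars are SE) for 8 members, with DLD-1 and HCT-116 on the left and the HT-29 libraries as labelled on the right, on a different axis. DLD-1 points lie at or above 0 and HCT-116 points at or below 0, from -1.18 to 0.99.

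Among the lists, class II genes had the lowest median in resistant HCT-116 (-2.61), with 7 of 10 lower and 0 higher. HLA-DQB1 (-6.81 ± 0.38), HLA-DRA (-5.25 ± 0.47), HLA-DRB1 (-5.13 ± 0.40) and HLA-DPA1 (-3.52 ± 0.46), chains of the molecules that present peptides to CD4+ T cells, went from means of 1.07 to 5.18 TPM to under 0.15 TPM. Of the 7 peptide supply genes PSMB8 (-2.14 ± 0.36) and PSMB9 (-1.92 ± 0.23) fell, and of 11 relatives and ligands RAET1G (-2.60 ± 0.31) and FCGRT (-1.39 ± 0.33). None of 13 transcription factor genes or 5 loading genes was called. CDH1, the epithelial cadherin, fell by 1.95 on the log2 scale in the same contrast, and PTPRC (2.76) and ITGAM (1.35) rose, to means of 0.317 and 1.23 TPM; their part in the members' difference was not tested. In DLD-1 no gene of the peptide supply, loading, transcription, interferon, class I-like or class II lists rose or fell with resistance. Among the colon epithelium markers KRT20 rose by 1.36 ± 0.06 (from 52.3 to 136.7 TPM), and their summed level went from 6178 to 6415 TPM in sensitive to 7682 to 9628 TPM in resistant cells; the part of this in the members' difference was not tested.

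Whether resistance altered the response to 5-FU was tested as an interaction, which shares its uracil libraries with the contrasts above. In DLD-1 (3.12% of all genes) and HCT-116 (6.11%) 0 of 8 members differed in response by edgeR, DESeq2 or limma, with 4 and 6 at an unadjusted p under 0.05. At the adjusted p alone, 2 members of DLD-1 (22.8% of genes) had a lower response in resistant cells, NLRC5 (-0.37 ± 0.10) and HLA-C (-0.19 ± 0.05), the latter with an adjusted p of 0.016 without replicate 1. In HCT-116, 3 members (29.7% of genes) had a higher one, HLA-F (0.82 ± 0.14), HLA-E (0.68 ± 0.09) and HLA-C (0.25 ± 0.07). All 3 were lower after 5-FU in sensitive cells. In resistant cells HLA-E and HLA-C were close to level, and HLA-F was at 0.22 without passing the adjusted p. The difference in response of HLA-F passed 2-fold without replicate 3 (1.03).

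The HT-29 contrasts are given as labelled. HLA-C was at 184, 187 and 191 TPM in labelled resistant and 17.0 to 18.6 TPM in sensitive cells under uracil (3.10 ± 0.06), and HLA-B at 92.9, 103 and 97.5 TPM against 10.1 to 13.1 TPM (2.99 ± 0.06). NLRC5 (4.11 ± 0.15), TAP1 (3.14 ± 0.07) and TAP2 (1.03 ± 0.04) were higher too, and B2M was lower (-1.25 ± 0.05), so that 6 members were called in either direction, beside 39.4% of all genes. HLA-F (0.83 ± 0.13) brought the adjusted p alone to 7 members, beside 68.4% of genes. The response to 5-FU of 6 members, HLA-F (-1.73), HLA-C (-1.58), NLRC5 (-1.44), HLA-B (-1.36), TAP1 (-1.23) and TAP2 (-1.20), was lower in the labelled resistant cells (6.8% of genes), and 8 members passed the adjusted p (35.4% of genes).

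Set against sensitive HCT-116, whose markers they carry, the libraries labelled resistant HT-29 had 1 called member, HLA-F, at 4.32, 4.64 and 5.09 TPM against 14.4 to 15.5 TPM (-1.84 ± 0.11; 4.6% of all genes were lower). HLA-E (-0.67), TAP1 (-0.59), HLA-B (-0.57), B2M (-0.42), NLRC5 (-0.39) and HLA-C (-0.35) brought the count at the adjusted p alone to 7, beside 30.2% of genes. NLRC5 turned to 0.14 with limma on log2(TPM + 1). HLA-DRA (-6.71), HLA-DRB1 (-3.89) and HLA-DQB1 (-3.61) were among 7 of 10 class II genes that were lower, a contrast that shares the sensitive HCT-116 libraries with that of resistant HCT-116.

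The kinds of transcript behind the gene values were looked at after the gene results were known. Transcript estimates were matched by identifier to GENCODE 44, and the types of transcript are those of that release. For HLA-C, HLA-E, HLA-F, HLA-G and TAP1 the matched transcripts held 99.7% or more of the gene's TPM in every condition. For B2M they held 53.2% to 71.05% over the libraries. Transcripts typed as protein-coding held 1.53% to 2.05% of its TPM by condition, and 4.00% to 5.36% of its counts. The B2M values above are thus gene totals that lie mostly outside these matched coding transcripts. The type of the unmatched part is not known, so these shares cannot show how much of the B2M signal was coding. In sensitive HT-29 the coding B2M transcripts were at 19.8, 17.6 and 22.7 TPM under uracil and 29.3, 39.7 and 41.8 TPM under 5-FU, without overlap. For NLRC5 a gain in gene TPM was only in part a gain in coding transcripts. In sensitive DLD-1 its gene TPM went from a mean of 5.90 to 9.57 with 5-FU, while its protein-coding transcripts went from 2.54, 2.52 and 3.12 TPM to 3.09, 3.15 and 2.80 TPM, so that their share went from 47.3% to 31.6%. The ranges of the coding values overlapped. The coding NLRC5 transcript of 6822 bases had means of 1.05 and 1.12 TPM, and a transcript of 527 bases without a defined coding sequence went from 0.193 to 1.15 TPM.

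In sensitive HCT-116 the coding NLRC5 transcripts were at 1.69, 1.91 and 2.03 TPM under uracil and 2.19, 2.34 and 2.49 TPM under 5-FU, while their share went from 53.6% to 39.6%. In sensitive HT-29 they were at 0.0605, 0.0763 and 0.0780 TPM and then at 0.487, 0.288 and 0.117 TPM, without overlap. On the count scale used for the fold changes, 69.5% of NLRC5 counts there under uracil and 33.5% under 5-FU were assigned to the coding transcripts. The fitted rise of NLRC5 is thus not one of coding transcripts alone. In resistant HCT-116 under uracil the coding transcripts were at 1.28, 1.19 and 0.999 TPM, below all 3 sensitive libraries, although the gene TPM was above them. Short transcripts weigh more in TPM than in counts, so the count-based fold changes and the TPM of NLRC5 describe different mixtures.

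HLA-B showed another pattern. In HCT-116 and in labelled resistant HT-29, 99.9% to 100.0% of its gene TPM fell on matched transcripts. In sensitive HT-29 it was 35.8% under uracil, 24.9% under 5-FU and 21.4% with irradiation, so most of the HLA-B signal that rose there sat on identifiers that GENCODE 44 does not place at this gene. The matched coding transcripts of HLA-B in sensitive HT-29 summed to 3.83, 0.432 and 0.521 TPM under uracil and 3.53, 2.47 and 3.54 TPM under 5-FU. Replicate 1 under uracil lay above all 3 treated libraries, so the groups overlapped in this matched part. The type of the unmatched transcripts is not known, so these values cannot show whether coding HLA-B rose. In sensitive DLD-1 the matched share was 79.0% to 83.8%, and in resistant DLD-1 it was 95.3% to 98.01%. The retained-intron transcript HLA-B-253 was at 55.0 to 64.2 TPM in sensitive HCT-116 and 41.8 to 45.2 TPM in labelled resistant HT-29 under uracil, and was listed at 0 in sensitive HT-29.

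**Figure D5:**
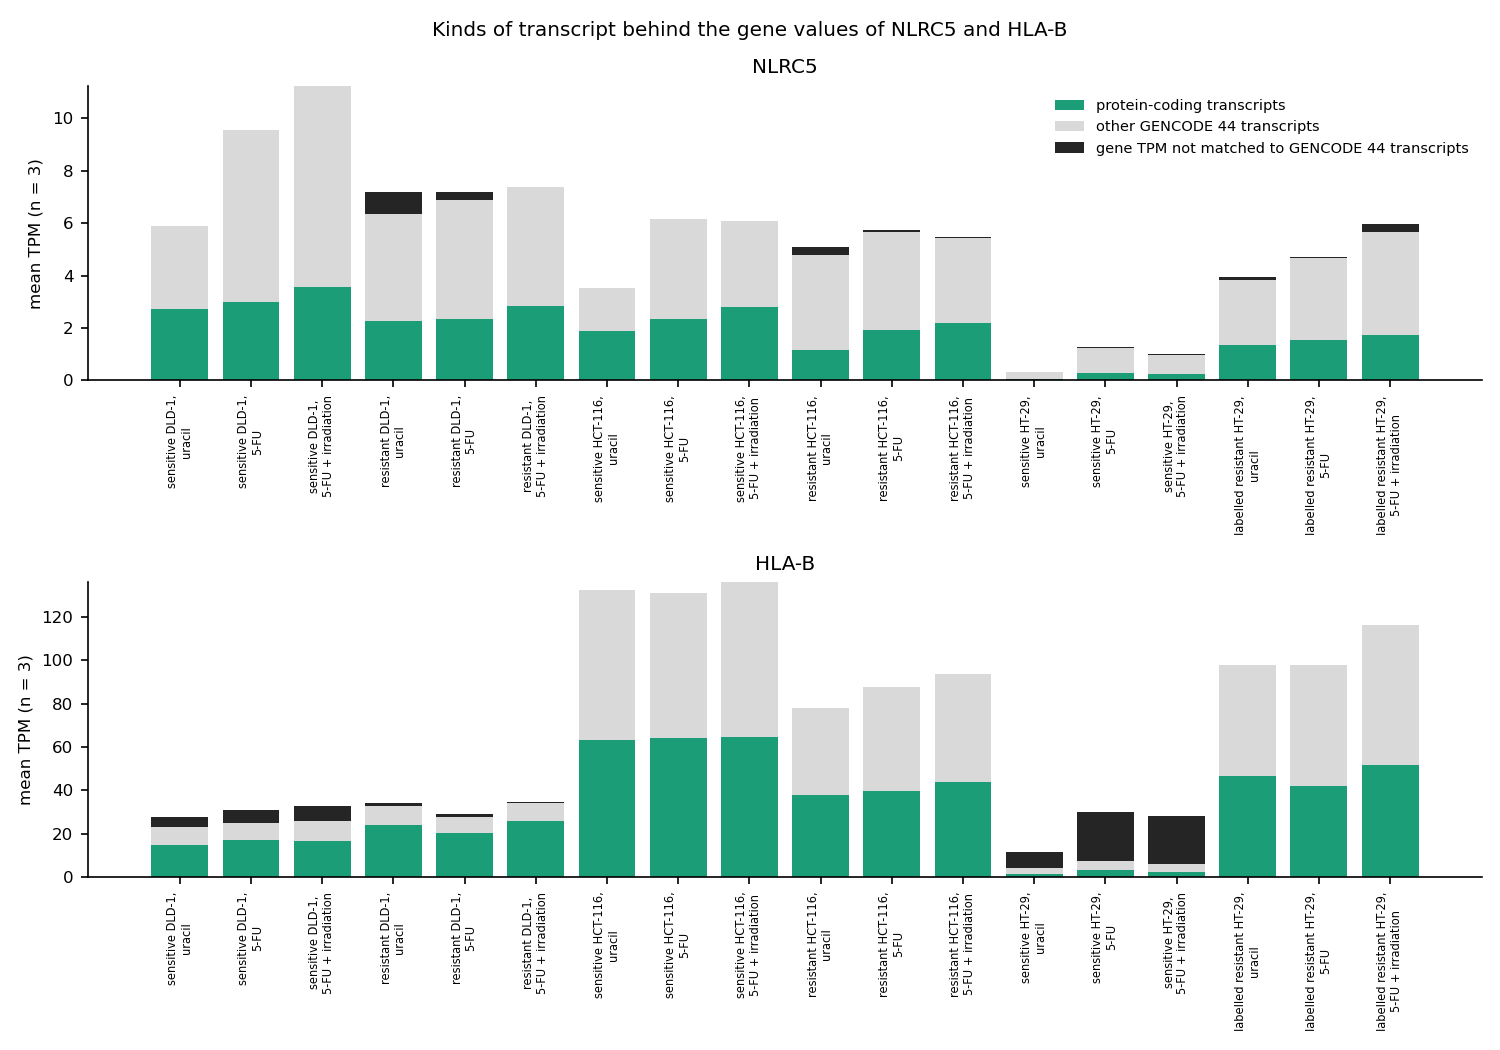
Mean TPM (n = 3, y axis) of NLRC5 (top) and HLA-B (bottom) in the 18 conditions, split into protein-coding transcripts, other transcripts of GENCODE 44 and gene TPM that matched neither. The protein-coding NLRC5 bar of sensitive DLD-1 is 2.73 TPM under uracil and 3.01 TPM under 5-FU, and HLA-B of sensitive HT-29 is mostly unmatched.

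Some members overlap other genes, and whether strand was used in the counting is not given in the sources used here. The antisense RNA HLA-F-AS1 ran from 2.03 to 20.0 TPM over the libraries, and PSMB9, which lies on the opposite strand and overlaps TAP1, from 0.374 to 26.9 TPM. Reads of HLA-F and TAP1 can therefore not be fully separated from those of these partners.

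Across the 15 conditions that leave out labelled resistant HT-29, each centred on its line, the members went together to unequal degrees. The points share libraries, controls and depth, so these correlations of mean log2(TPM + 1) are descriptions. HLA-C and B2M were closest (Pearson r = 0.972), followed by HLA-C and TAP2 (0.945), HLA-B and TAP1 (0.943) and HLA-B and HLA-C (0.928). NLRC5 was the least like the others, with r between 0.0414 (HLA-F) and 0.621 (TAP2). Among 21767 genes compared, a number that includes members, the non-members most like HLA-B were IFI6 (0.988), an interferon-induced gene, then TMEM92, CCNDBP1, JUNB and CD9 (0.976). GIPR (0.988), YPEL5, HSH2D, RAC2 and PTPRE (0.974) were most like TAP1, and LINC00342 (0.962), AC087385.1, ACSL5, LTB4R and SUPT5H (0.955) most like NLRC5.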

How the data were processed

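RNA from 54 cell cultures was sequenced by the authors with directional libraries. According to the submitters' processing notes, Trimmomatic 0.36, FastQC 0.11.8 and kallisto 0.44.0 were used with GRCh38.p13, and the transcript set was Ensembl 98 according to the study's methods; no genome alignment enters these values. The authors deposited estimated counts per gene and transcript (60.9% of gene values, zeros included, are whole within rounding error) and TPM per gene and transcript. kallisto divides reads shared by similar transcripts by estimate, which bears on the HLA genes.

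The deposited estimated counts were rounded and fitted by edgeR 4.0.16 (R 4.3.3), with TMM scaling, filterByExpr and the quasi-likelihood test. Each line had 1 fit (18 libraries, 6 groups, 12 residual degrees of freedom), and comparisons between lines had 1 fit of all 54 libraries. Benjamini-Hochberg adjustment covered all genes tested. SE was taken from the fold change and the F statistic. DESeq2 1.42.0 and limma 3.58.1 on log2(TPM + 1) were alternatives. A check on simulated counts recovered 91 to 97 of 100 genes changed 2-fold at the adjusted p alone. False calls, counted at the adjusted p and 2-fold together, were 2 or 3, and those at the adjusted p alone were not counted. The changed genes were drawn only from genes above a floor on the mean count. The 4 comparisons simulated were the sensitive 5-FU contrasts of each line (21816, 22975 and 23758 genes) and HCT-116 against DLD-1 (26045 genes).

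The members and lists were chosen with earlier results of these data known. Genes are named by rule: the members, IRF1, at most 4 called genes per list and comparison with the largest change, and the 5 genes most like HLA-B, TAP1 and NLRC5. The last needed a mean of at least 1 TPM in 1 of the 15 conditions. Some genes that the rule names are not reported here. Same-numbered replicates did not deviate together (median r of -0.000408, 0.00609 and 0.0062 in the 3 lines, highest 0.077), so numbers were not used as pairs. No pair of replicates agreed within counting noise (54 pairs, chi-square per degree of freedom from 2.24 to 24.5).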

Additional observations from a re-analysis of the deposited data

Results flagged for a closer look

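The 5-FU response of sensitive HT-29 stood apart from that of the other sensitive lines, by a test of the difference itself in edgeR. Against DLD-1 the log2 responses differed by 1.30 ± 0.09 (SE) for HLA-B, 1.54 ± 0.07 for HLA-C, 2.26 ± 0.16 for HLA-F, 1.27 ± 0.08 for TAP1, 1.02 ± 0.06 for TAP2 and 1.27 ± 0.18 for NLRC5. HLA-G differed by 6.52 ± 1.39, a fitted value that depends on the prior count because the uracil libraries held 1 count. Its call supports nothing, because the gene entered the fit only through the treated libraries where it is high.

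Against HCT-116 the differences were 1.33 ± 0.09 for HLA-B, 1.83 ± 0.07 for HLA-C, 1.26 ± 0.07 for HLA-E, 2.41 ± 0.16 for HLA-F, 1.10 ± 0.07 for B2M, 1.01 ± 0.08 for TAP1, 1.32 ± 0.06 for TAP2 and 1.13 ± 0.19 for NLRC5. HLA-G differed by 5.24 ± 1.53 with the same limits, and its call supports nothing here either. All of these values use the same sensitive HT-29 libraries.

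Within HT-29 as labelled, the response of resistant minus sensitive cells was -1.36 ± 0.08 for HLA-B, -1.58 ± 0.08 for HLA-C, -1.73 ± 0.17 for HLA-F, -1.23 ± 0.09 for TAP1, -1.20 ± 0.06 for TAP2 and -1.44 ± 0.21 for NLRC5. Since the libraries labelled resistant carry HCT-116 markers, resistance and cell line cannot be told apart there.

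Resistant and sensitive cells under uracil differed in opposite directions in DLD-1 and HCT-116, with every resistant library on one side of every sensitive library. The log2 fold changes were 0.36 in DLD-1 and -0.78 in HCT-116 for HLA-B, and 0.30 and -0.58 for HLA-C. They were 0.99 and -1.18 for HLA-F, and 0.32 and -0.69 for TAP1. The difference between the lines was not tested for these 4 genes.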

How the results depend on the processing

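Of 986 alternative values of 111 member results, 957 kept their direction and their side of the threshold, 22 lost and 6 gained a call, and 1 changed sign: NLRC5 in labelled resistant HT-29 against sensitive HCT-116, 0.14 with limma on log2(TPM + 1) against -0.39. With the adjusted p alone the members called became 4 (5-FU), 2 (irradiation in resistant cells), 6 (resistant against sensitive) and 2 (interaction) in DLD-1, 6, 1, 7 and 3 in HCT-116, 5 for irradiation in labelled resistant HT-29, 6 between the uracil levels and 5 between the responses of HCT-116 and DLD-1, and 7 for labelled resistant HT-29 against HCT-116. Each count stands beside the share of all genes given with that result above, from 2.57% to 59.8%. Leaving out 1 replicate gave 0 to 1 members for resistant against sensitive DLD-1 and for the HCT-116 interaction, in both through HLA-F. For the HT-29 against DLD-1 response limma gave 4 and DESeq2 5 members instead of 7 (HLA-G included), and TAP2 was 0.97 with DESeq2 and 0.96 without replicate 1. For HT-29 against HCT-116, TAP1 was 0.97 with DESeq2 and 0.94 without replicate 1 or 3, and HLA-G had an adjusted p of 0.019 to 0.076 without each replicate. B2M in HT-29 as labelled was -0.99 with library size alone and -0.92 with limma. The cause of these shifts was not tested. The fit with the replicate number as a block changed the call of 0 of 111 results, for example 1.52 for HLA-C under 5-FU in sensitive HT-29, and 5, 11 and 6 of 18 libraries per line were most like one of their own number. Fits on the compared groups only, with the deepest library thinned to 23.05% of its counts, or without a filter on low counts changed no call. Those on the compared groups only were made within lines, and not for comparisons between lines. HLA-G and, in sensitive HT-29, NLRC5 rest on few counts.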
